A study of Mus musculus with 8 samples.

Results

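The E proteins and their Id inhibitors are a small family of helix-loop-helix transcription regulators, represented on the mouse arrays of this series by 16 of the 22690 probe sets. They were chosen by gene symbol alone, as every probe set that the platform annotation gives to Tcf3 (E2A), Tcf4 (E2-2), Tcf12 (HEB), Id1, Id2 or Id3. The E proteins have 11 of these probe sets (Tcf3 3, Tcf4 6 and Tcf12 2) and the Id proteins 5 (Id1 1, Id2 3 and Id3 1).

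E proteins pair with each other or with a tissue-specific partner and activate genes through a short DNA element called the E-box. Id proteins pair with E proteins but lack the DNA-contacting region, and so keep them off DNA. In the thymus, E2A and HEB drive T lineage commitment, receptor gene rearrangement and the pre-T-cell receptor, Id3 is induced by receptor signals, and Id2 is known for its role in NK and other innate lymphoid cells. E2-2 is the E protein that maintains plasmacytoid dendritic cells.

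The study compared sorted CD4-CD8- cells from mice given the dioxin TCDD, which binds and activates the aryl hydrocarbon receptor (AhR), or its corn oil carrier, under a title that asks about AhR in the emigration of thymocytes. There were 4 groups of 2 Affymetrix arrays: thymus emigrants after TCDD, thymus emigrants after corn oil, thymocytes after TCDD and thymocytes after corn oil. All mice were female C57BL/6 aged 6 to 8 weeks. TCDD was injected intraperitoneally at 10 µg/kg, FITC was put into the thymus 5 days later to mark its cells, and 24 h after that the marked cells were sorted from the spleen (emigrants) or the thymus (thymocytes). Nothing in the labels tells if both arrays of a group stem from different animals, so the p-values reflect the spread among these samples alone, and that spread may be technical. The groups follow the sample titles. The Treatment field of emigrants oil 1 names TCDD, that of emigrants oil 2 names dioxane, thymus is entered as the tissue of certain emigrant arrays, and the protocol text of all thymocyte arrays mentions corn oil only. The RNA was amplified before labelling.

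Levels are the deposited RMA values on the log2 scale, where 1 unit is a doubling, and the array medians lay between 4.81 and 4.91. With no detection calls in the data, a probe set below the array median is here called dim, since its level was not shown to stand above background. Of the members, 6 lay above the array median on all 8 arrays, 4 on some arrays, and 6 on none. Differences, taken as emigrants minus thymocytes or TCDD minus oil, were tested with limma over all 22690 probe sets and called at a Benjamini-Hochberg adjusted p under 0.05. The RNA comes from sorted but mixed cells, so fewer cells of a type and less RNA per cell cannot be told apart.

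The sorted cells carried T lineage RNA in every group. Cd3d, Cd3e and Cd3g ranged from 8.09 to 9.86 over the 8 arrays, and Cd4 from 4.53 to 5.31, near the array medians. Cd8a ranged from 4.57 to 7.14. Csf1r, a receptor of macrophages, ranged from 8.64 to 10.63, and Gzma, a granzyme of NK and cytotoxic T cells, from 7.96 to 12.29. Other markers of the same lists were mixed. Lyz2 (8.62 to 10.06) and Nkg7 (7.93 to 10.80) were high too. The macrophage markers C1qa (4.79 to 6.34) and Cd14 (4.84 to 6.54) and the NK marker Ncr1 (4.72 to 5.23) lay lower, down to the array medians. Some emigrant arrays stood apart. Emigrants TCDD 2 did so in several lymphoid genes, with Dntt at 6.09 (9.82 to 11.62 in the others) and Gzma at 7.96 (10.43 to 11.53). Emigrants TCDD 1 had Mpo, a granulocyte enzyme, at 8.60 (4.85 to 5.27 in the other emigrants), and emigrants oil 2 had the collagen gene Col3a1 at 6.75 (4.09 to 4.39 in the others). The thymocyte arrays also varied, and some genes split by array number. Cd8a lay at 5.05 (TCDD) and 5.15 (oil) on thymocyte arrays 1, and at 7.14 and 6.66 on arrays 2. For Bst2 these levels were 6.39 and 6.31 against 8.91 and 7.97, and for Ltf 7.67 and 7.78 against 5.46 and 6.37.

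Promoter sequence was at hand for 4 of the 6 genes in the RefSeq table (build GRCm38.p6). It is shown as the 250 bases upstream of the annotated start for Tcf3, Tcf12 and Id2. Each of these has a probe set above the array median on all 8 arrays that is followed in the comparison of emigrants with thymocytes. Capitals mark the E-box CANNTG, which reads the same on both strands, and the AhR core element GCGTG on either strand. The sequences run 5′ to 3′ along the gene, from minus-strand genes at chr10:80433636-80433885 (Tcf3), chr9:72111820-72112069 (Tcf12, the most upstream of 3 annotated starts) and chr12:25096093-25096342 (Id2).
Tcf3: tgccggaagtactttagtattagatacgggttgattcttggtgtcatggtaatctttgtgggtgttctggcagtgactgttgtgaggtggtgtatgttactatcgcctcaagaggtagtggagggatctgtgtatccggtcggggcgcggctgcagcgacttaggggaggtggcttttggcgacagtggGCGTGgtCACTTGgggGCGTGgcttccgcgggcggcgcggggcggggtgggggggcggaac
Tcf12: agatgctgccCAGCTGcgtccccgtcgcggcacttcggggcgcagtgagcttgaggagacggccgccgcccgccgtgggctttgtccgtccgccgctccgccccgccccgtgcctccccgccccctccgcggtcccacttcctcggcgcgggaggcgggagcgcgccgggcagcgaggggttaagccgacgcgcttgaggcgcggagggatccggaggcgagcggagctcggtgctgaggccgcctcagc
Id2: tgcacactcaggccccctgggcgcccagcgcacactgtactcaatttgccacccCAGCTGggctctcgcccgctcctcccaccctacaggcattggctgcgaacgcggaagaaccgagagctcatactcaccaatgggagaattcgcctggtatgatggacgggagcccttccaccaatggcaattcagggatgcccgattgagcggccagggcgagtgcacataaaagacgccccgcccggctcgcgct
Tcf3 holds 1 E-box and 2 copies of GCGTG, none overlapping, while Id2 and the Tcf12 window shown hold 1 E-box each, of the same 6 letters CAGCTG, and no GCGTG. The other Tcf12 windows differ, since chr9:72111202-72111451 holds 1 E-box (CAAGTG) and 1 GCGTG, and chr9:71896097-71896346 holds neither. The window of Id3 (chr4:136143572-136143821, plus strand) holds 1 GCGTG and no E-box. Of 32851 mouse promoters of this length, 66.2% hold an E-box and 28.2% a GCGTG, so these letters are common and a match is a description of the sequence only.

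Tcf3, which encodes E2A, was measured by 1 probe set above the array median on all arrays (1426297_at). Its levels for arrays 1 and 2, the order used throughout, were 5.25 and 5.43 in TCDD emigrants, 5.22 and 5.66 in oil emigrants, 6.18 and 5.47 in TCDD thymocytes, and 6.66 and 6.00 in oil thymocytes. The emigrant arrays were the low ones, and the sources overlapped only in that thymocytes TCDD 2 lay below emigrants oil 2. The order of the group means was TCDD emigrants, oil emigrants, TCDD thymocytes and oil thymocytes, and no neighbours in it were further apart than the larger of their SDs. The same held for all neighbouring group means of the 10 probe sets that were not dim on every array.

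Tcf12, which encodes HEB, had the brightest member probe set of all (1427670_a_at). It lay at 8.87 and 6.52 in TCDD emigrants, 9.37 and 8.34 in oil emigrants, 9.72 and 9.43 in TCDD thymocytes, and 9.56 and 8.91 in oil thymocytes. Emigrants TCDD 2 was far below the rest, and array 1 was above array 2 in all 4 groups. The other Tcf12 probe set (1421908_a_at) showed little of this, with 6.41 and 5.85 in TCDD emigrants, 6.18 and 6.25 in oil emigrants, 6.15 and 6.31 in TCDD thymocytes, and 6.37 and 6.27 in oil thymocytes. Its SD over the 8 arrays was 0.173, against 1.04 for the brighter one, and the probe sets had a Pearson r of 0.733 but a Spearman rho of 0.167 over 8 arrays. The suffix _a_at marks probe sets that match several transcripts of a gene, and which HEB transcripts each of them reads was not examined.

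Tcf4, which encodes E2-2, had 3 probe sets above the array median on some or all arrays. The brightest (1416723_at) lay at 7.42 and 5.76 in TCDD emigrants, 6.87 and 6.02 in oil emigrants, 7.53 and 7.49 in TCDD thymocytes, and 7.37 and 6.44 in oil thymocytes. Probe set 1434148_at lay at 4.74 and 3.52 in TCDD emigrants, 4.35 and 3.89 in oil emigrants, 6.68 and 5.30 in TCDD thymocytes, and 6.84 and 4.37 in oil thymocytes. It was dim on all emigrant arrays, so the size of its difference depends on levels not shown to stand above background. Probe set 1416724_x_at, of a type that can also bind similar sequences, lay between 4.80 and 5.69 in emigrants and between 4.78 and 5.83 in thymocytes. Array 1 was above array 2 in all 4 groups for each of these 3 probe sets. They followed each other over the 8 arrays, with a Pearson r of 0.922 between 1416723_at and 1416724_x_at and of 0.807 between 1416723_at and 1434148_at.

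Id2 was measured by 3 probe sets. The brightest (1435176_a_at) lay at 7.37 and 8.11 in TCDD emigrants, 7.89 and 8.43 in oil emigrants, 6.37 and 7.97 in TCDD thymocytes, and 6.96 and 8.10 in oil thymocytes. Array 2 was above array 1 in all 4 groups, the reverse of Tcf12 and Tcf4. Probe set 1422537_a_at lay at 6.62 and 7.29 in TCDD emigrants, 7.35 and 7.51 in oil emigrants, 6.24 and 7.00 in TCDD thymocytes, and 6.49 and 6.48 in oil thymocytes. Both oil emigrant arrays were above all 4 thymocyte arrays. Probe set 1453596_at lay at 6.04 and 5.18 in TCDD emigrants, 6.02 and 5.89 in oil emigrants, 4.81 and 5.89 in TCDD thymocytes, and 4.85 and 5.50 in oil thymocytes. The brightest probe set had a Pearson r of 0.783 with 1422537_a_at and of 0.637 with 1453596_at over the 8 arrays.

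Id3 (1416630_at) had no common pattern by source or treatment. It lay at 6.38 and 4.45 in TCDD emigrants, 7.05 and 5.31 in oil emigrants, 5.20 and 6.85 in TCDD thymocytes, and 5.30 and 6.11 in oil thymocytes. Array 1 was the higher in both emigrant groups and array 2 in both thymocyte groups, so the ranges of all groups overlapped. Id1 (1425895_a_at), which BMP signals induce in many cells, was dim on all arrays, at 3.99 and 4.12 in TCDD emigrants, 4.17 and 4.21 in oil emigrants, 4.82 and 3.96 in TCDD thymocytes, and 4.74 and 4.21 in oil thymocytes. Together with Id1, 2 probe sets of Tcf3 (1427764_a_at and 1452542_x_at) and 3 of Tcf4 (1416725_at, 1424089_a_at and 1434149_at) were dim everywhere, between 2.84 and 4.82. Their differences in the 7 comparisons made ran from -0.48 to 0.36.

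**Figure D1:**
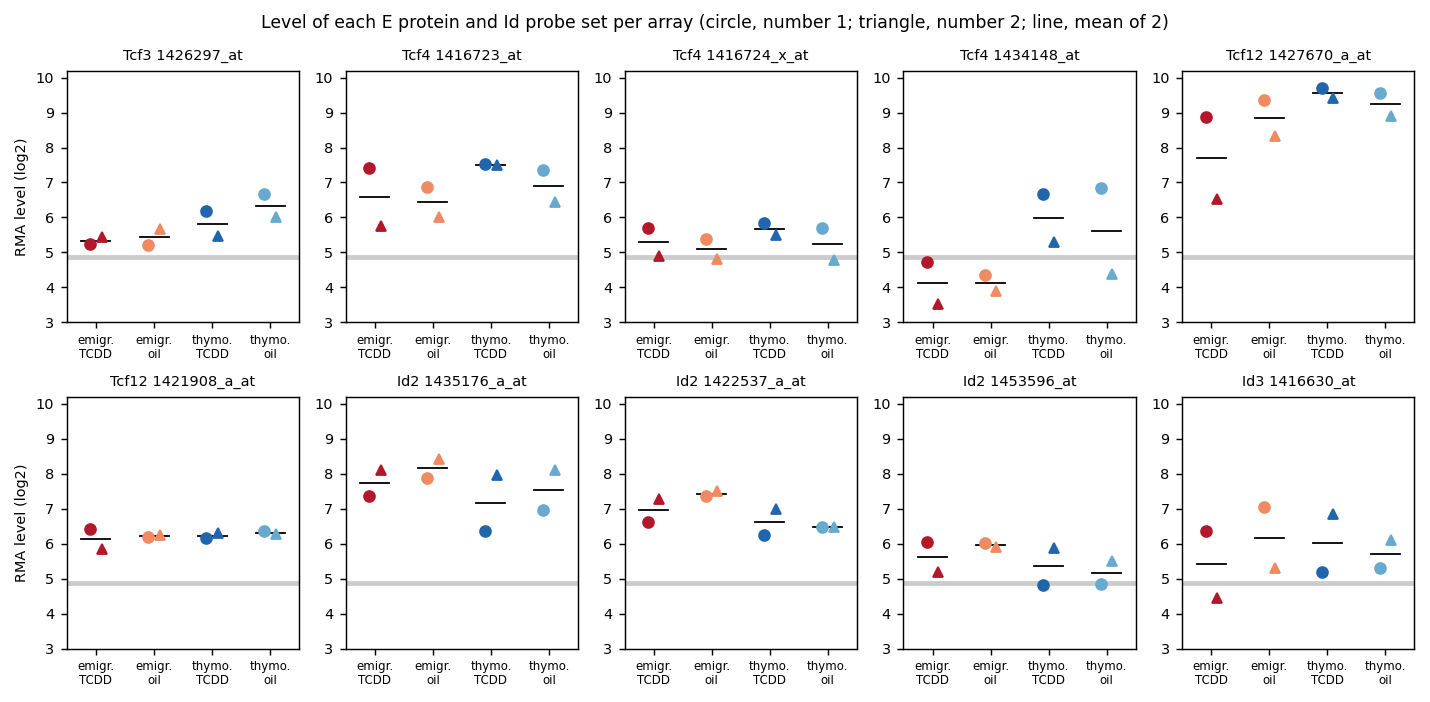
RMA level (log2) of the 10 E protein and Id probe sets that were not dim on every array, per array and group, with circles for arrays numbered 1, triangles for arrays numbered 2, short lines for the mean of both and a grey band for the range of array medians. Tcf3 and Tcf4 1434148_at have lower group means in emigrants, Id2 has higher ones, and Id3 splits by array number in opposite ways in the emigrants and the thymocytes.

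The members differed widely in how much they varied. Tcf4 1434148_at (SD 1.23 over the 8 arrays), Tcf12 1427670_a_at (SD 1.04) and Id3 (SD 0.906) varied more than 98.7%, 97.3% and 95.3% of the probe sets with a mean level above the median of all, whose median SD was 0.334. For Tcf3 1426297_at (SD 0.506) and Id2 1422537_a_at (SD 0.479) those shares were 74.4% and 71.1%.

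Emigrants were compared with thymocytes to ask how the E and Id genes stand in cells that have left the thymus. Averaged over both treatments, the main probe sets of the E proteins were lower in emigrants, with Tcf3 1426297_at 1.61-fold lower, and all 3 Id2 probe sets were higher, by 1.44 to 1.56-fold. None of these differences passed the test over all probe sets. Limma called 0 of the 16 members, where 0.0617% of all probe sets (14) were called. At an unadjusted p under 0.05 there were 3 members of 16, against 14.1% of all probe sets. The mean in emigrants was higher for 4 members and lower for 12, with a median difference of -0.18, against 0.03 over all probe sets.

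Same-numbered TCDD and oil arrays of a source deviated together (r 0.734 in thymocytes and 0.524 in emigrants over all probe sets). The 4 arrays of a source may thus not be independent. The intervals and tests of emigrants against thymocytes over both treatments, for members and listed genes, treat them so and may be too narrow. Tcf3 1426297_at averaged 5.39 ± 0.20 in emigrants and 6.08 ± 0.49 in thymocytes (SD, n = 4 arrays each). The difference was -0.69 (95% interval -1.25 to -0.13, limma adjusted p = 0.259), and it kept its sign with each array left out, between -0.87 and -0.51. Tcf4 1434148_at had the larger difference, -1.67 (95% interval -3.20 to -0.15, limma adjusted p = 0.309), with a mean of 4.12 in emigrants and 5.80 in thymocytes. Its range with each array left out was -2.29 to -1.06, and without thymocytes oil 1, where it was highest, it was -1.06. The brighter Tcf4 1416723_at differed by -0.69 (95% interval -1.72 to 0.34), between -1.10 without emigrants TCDD 1 and -0.27 without emigrants TCDD 2. Probe set 1416724_x_at differed by -0.26 (95% interval -0.96 to 0.44), between -0.49 without thymocytes oil 2 and -0.031 without thymocytes oil 1. So the Tcf4 probe sets had differences of 1 sign and of unlike size.

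Tcf12 1427670_a_at averaged 8.27 ± 1.24 in emigrants and 9.41 ± 0.35 in thymocytes (SD, n = 4 each), a difference of -1.13 (95% interval -2.44 to 0.17, limma adjusted p = 0.414). Much of it came with 1 array, since leaving out emigrants TCDD 2 gave -0.54, and leaving out emigrants TCDD 1 gave -1.72. The other Tcf12 probe set differed by -0.10 (95% interval -0.45 to 0.25), and by 0.04 without emigrants TCDD 2. That interval covers the signal of the dimmer probe set alone. It does not bound the change of the brighter one, since which transcripts each reads was not examined.

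Id2 1422537_a_at averaged 7.19 ± 0.40 in emigrants and 6.55 ± 0.32 in thymocytes (SD, n = 4 each), a difference of 0.64 (95% interval 0.10 to 1.18, limma adjusted p = 0.273). With each array left out it stayed between 0.45 and 0.83. The brightest Id2 probe set, 1435176_a_at, differed by 0.60 (95% interval -0.47 to 1.67), and by 0.20 without thymocytes TCDD 1. Probe set 1453596_at differed by 0.52 (95% interval -0.25 to 1.29). Id3 averaged 5.79 in emigrants and 5.86 in thymocytes, a difference of -0.07 (95% interval -1.62 to 1.49), an interval too wide to tell a rise from a fall. Dim Id1 differed by -0.31 (95% interval -0.84 to 0.22).

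The same comparison was also made within each treatment. In oil, Tcf3 1426297_at differed by -0.89 (95% interval -1.68 to -0.10, limma adjusted p = 0.494) and Id2 1422537_a_at by 0.95 (95% interval 0.18 to 1.71, limma adjusted p = 0.445). In TCDD, Tcf12 1427670_a_at differed by -1.88 (95% interval -3.73 to -0.04, limma adjusted p = 0.66), and by -0.71 without emigrants TCDD 2. In TCDD, Tcf3 differed by -0.49 and Id2 1422537_a_at by 0.34, while in oil Tcf12 1427670_a_at differed by -0.38. The source differences were not shown to depend on the treatment, since their difference (TCDD minus oil) had an interval that includes 0 for Tcf3 (0.40, 95% interval -0.72 to 1.52), Id2 1422537_a_at (-0.61, 95% interval -1.69 to 0.47) and Tcf12 1427670_a_at (-1.50, 95% interval -4.11 to 1.11). Limma called 0 of 16 members and 0% of all probe sets in either treatment. At an unadjusted p under 0.05 there were 1 of 16 members against 7.43% of all probe sets in TCDD, and 2 of 16 against 8.94% in oil. The arrays of the sources did not overlap for 5 members in TCDD and 8 in oil, where 35.7% and 38.8% of all probe sets did not overlap. Over all 8 arrays 0 members did not overlap, against 11.8% of all probe sets.

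**Figure D2:**
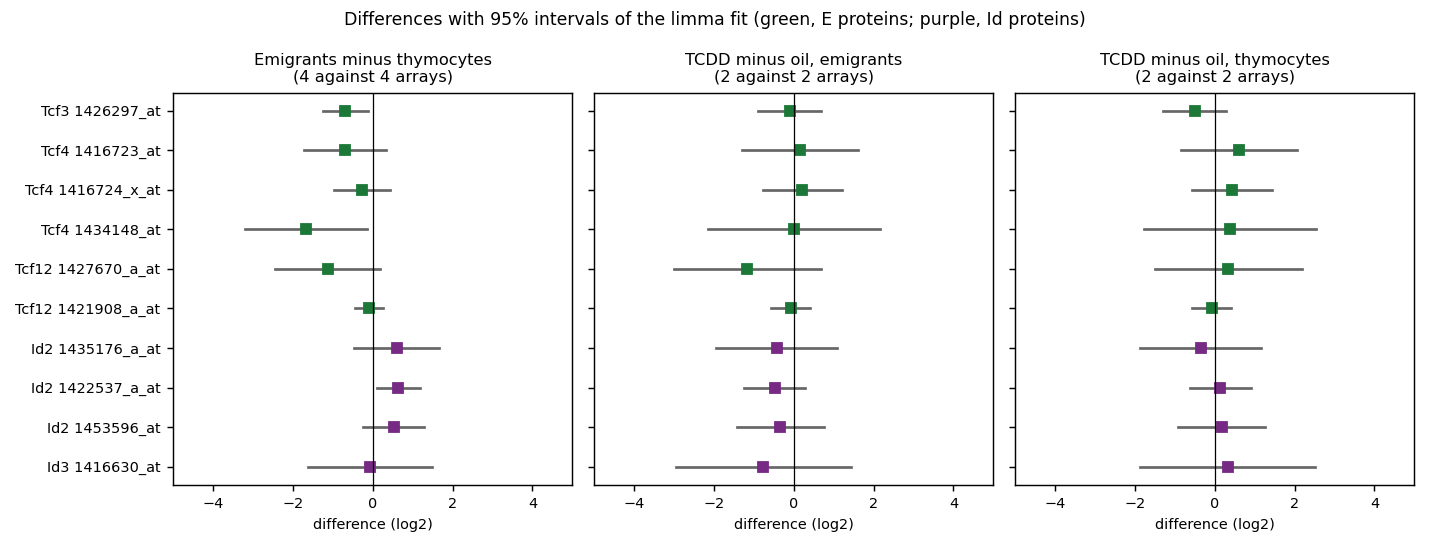
Difference in level (log2, squares) with its 95% interval from the limma fit (lines) for 10 probe sets, green for E proteins and purple for Id proteins, in 3 comparisons. In emigrants minus thymocytes Tcf3 (-0.69), Tcf4 1434148_at (-1.67) and Id2 1422537_a_at (0.64) have intervals on 1 side of 0, and in the TCDD comparisons every interval includes 0.

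In the emigrants, TCDD was compared with oil to ask whether the AhR ligand moves these regulators in cells that have reached the spleen. The 3 Id2 probe sets, Id3 and Tcf12 1427670_a_at all had lower means after TCDD, and the means of Tcf3 and Tcf4 differed less. No interval excluded 0, and those of Tcf4 1416723_at and 1434148_at reached beyond a doubling in either direction. Limma called 0 members and 0% of all probe sets. There were 0 of 16 members at an unadjusted p under 0.05, against 1.20% of all probe sets. The TCDD arrays did not overlap the oil arrays for 3 members (Id2 1422537_a_at and dim Id1 and Tcf4 1424089_a_at), with a background of 24.6% of all probe sets.

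Tcf12 1427670_a_at averaged 7.69 ± 1.66 in TCDD emigrants and 8.86 ± 0.72 in oil emigrants (SD, n = 2 each). Its difference of -1.16 (95% interval -3.01 to 0.68, limma adjusted p = 1) was 0.01 when emigrants TCDD 2 was left out, and leaving out emigrants TCDD 1 gave -2.34. The dimmer Tcf12 probe set differed by -0.08 (95% interval -0.58 to 0.41).

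Id2 1422537_a_at averaged 6.95 ± 0.48 in TCDD emigrants and 7.43 ± 0.11 in oil emigrants (SD, n = 2 each), with both TCDD arrays below both oil arrays, a difference of -0.48 (95% interval -1.24 to 0.28, limma adjusted p = 1). The other Id2 probe sets differed by -0.42 (95% interval -1.94 to 1.09) and -0.34 (95% interval -1.43 to 0.74), with overlapping arrays. Id3 differed by -0.76 (95% interval -2.96 to 1.43), and by 0.20 without emigrants TCDD 2. Without that array Id2 1453596_at differed by 0.09, and the other Id2 probe sets by -0.82 (1422537_a_at) and -0.79 (1435176_a_at). In the 3 remaining arrays 1453596_at thus showed little difference, while 1422537_a_at and 1435176_a_at stayed lower after TCDD.

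Tcf3 1426297_at differed by -0.10 after TCDD (95% interval -0.89 to 0.69), Tcf4 1416723_at by 0.15 (95% interval -1.31 to 1.60) and Tcf4 1434148_at by 0.01 (95% interval -2.15 to 2.16). Of these, Tcf4 1416723_at differed by 0.98 when emigrants TCDD 2 was left out and by -0.69 when emigrants TCDD 1 was. In this fit the intervals of these 2 Tcf4 probe sets included a doubling in either direction. That of 1416724_x_at was narrower (0.21, 95% interval -0.78 to 1.20). With the array number as a block within each source, the SEs were 0.29 (1416723_at) and 0.31 (1434148_at), against 0.60 and 0.89 here.

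In the thymocytes, the same comparison asked about TCDD in cells still in the thymus. Tcf3 had a lower mean and Tcf4 a higher one after TCDD, and no difference passed the test. Limma called 0 members and 0% of all probe sets, and 0 of 16 members had an unadjusted p under 0.05, against 1.38% of all probe sets. The arrays did not overlap for 1 member, Tcf4 1416723_at, against 20.7% of all probe sets.

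Tcf3 1426297_at averaged 5.82 ± 0.51 in TCDD thymocytes and 6.33 ± 0.46 in oil thymocytes (SD, n = 2 each). Its difference was -0.51 (95% interval -1.30 to 0.29, limma adjusted p = 1) and it was -0.15 without thymocytes TCDD 2 and -0.18 without thymocytes oil 1. Tcf4 1416723_at averaged 7.51 ± 0.03 in TCDD thymocytes and 6.90 ± 0.66 in oil thymocytes (SD, n = 2 each), a difference of 0.61 (95% interval -0.85 to 2.06). It was 0.14 without thymocytes oil 2. Tcf12 1427670_a_at differed by 0.34 (95% interval -1.51 to 2.18) and Id3 by 0.32 (95% interval -1.88 to 2.52). The Id2 probe sets differed by -0.36, 0.13 and 0.17, and the sign of each turned with some array left out. Same-numbered TCDD and oil thymocyte arrays deviated together (r 0.734 over all probe sets). Leaving out 1 array therefore leaves its counterpart unmatched, and such a turn alone does not show that a direction is absent.

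Averaged over both sources, TCDD gave differences from -0.41 (Tcf12 1427670_a_at) to 0.38 (Tcf4 1416723_at), with limma calling 0 members and 0% of all probe sets. At an unadjusted p under 0.05 there were 0 members, against 1.26% of all probe sets, and 0 members did not overlap, against 0.829% of all probe sets. Whether TCDD acted differently in emigrants and thymocytes was tested as an interaction. The largest was that of Tcf12 1427670_a_at, -1.16 in emigrants against 0.34 in thymocytes (difference -1.50, 95% interval -4.11 to 1.11, limma adjusted p = 1), and leaving out emigrants TCDD 2 gave -0.33. For Id3 the TCDD differences were -0.76 in emigrants and 0.32 in thymocytes (difference -1.08, 95% interval -4.19 to 2.03), and the interaction was -0.12 without emigrants TCDD 2. Limma called 0 members and 0% of all probe sets in this test, with 0 members and 1.28% of all probe sets at an unadjusted p under 0.05.

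The genes that E proteins are known to control in thymocytes were followed as a list of 22, of which 21 were measured, each by its brightest probe set. The shares of all probe sets given beside this and the later lists also count the dimmer probe sets of each gene, so that background is not a like one. The lists were chosen with earlier results of these data known, and no direction was set for their genes. Their counts and medians are thus a description only. In emigrants against thymocytes, Notch3 fell, the only member past the test. Of the list, 14 genes had a lower and 7 a higher mean in emigrants, with a median difference of -0.47, against 0.03 over the brightest probe sets of all genes. At an unadjusted p under 0.05 there were 10 lower and 5 higher members of 21, where 14.1% of all probe sets lay under it and 0.0617% were called. Without emigrants TCDD 2 these counts were 10 and 3, and over all arrays left out in turn the lower ones numbered 6 to 11 and the higher ones 2 to 5. The members past the test numbered 4 without emigrants TCDD 1, 3 without emigrants oil 2, and 0 without each of the other arrays.

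Notch3, a receptor of the Notch pathway active in early thymocytes, lay at 5.70 and 5.69 in TCDD emigrants, 5.61 and 5.88 in oil emigrants, 7.53 and 7.16 in TCDD thymocytes, and 7.08 and 7.03 in oil thymocytes. All emigrant arrays were below all thymocyte arrays, and Notch3 was 2.79-fold lower (difference -1.48, SE 0.12, limma adjusted p = 0.0374). With an array left out the difference stayed between -1.57 and -1.39, but the limma adjusted p was below 0.05 only without emigrants oil 2 (0.0449) or emigrants TCDD 1 (0.0485), and it was 0.0932 to 0.171 without each of the other arrays. It was 0.0627 with a trended, robust variance prior, and the difference was -0.87 with the probe sets of the gene averaged.

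Ptcra, the pre-T-cell receptor alpha chain and a classical E protein target, lay at 5.25 and 5.08 in TCDD emigrants, 5.35 and 7.00 in oil emigrants, 8.95 and 9.45 in TCDD thymocytes, and 8.83 and 9.20 in oil thymocytes. It did not overlap between the sources, with a difference of -3.44 (SE 0.36, limma adjusted p = 0.054). Ptcra lay so near the threshold that 8 of the alternatives called it. Notch1, the receptor that starts the T lineage program, differed by -2.01 (SE 0.29, limma adjusted p = 0.0614). Rag1, named here after its values were seen, lay at 9.81 in emigrants oil 2, inside the thymocyte range of 9.33 to 10.21, and between 3.75 and 5.10 in the other emigrants. On the higher side stood Il7r (1.66), the interleukin 7 receptor, and Foxo1 (1.25), with limma adjusted p of 0.123 and 0.262.

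**Figure D3:**
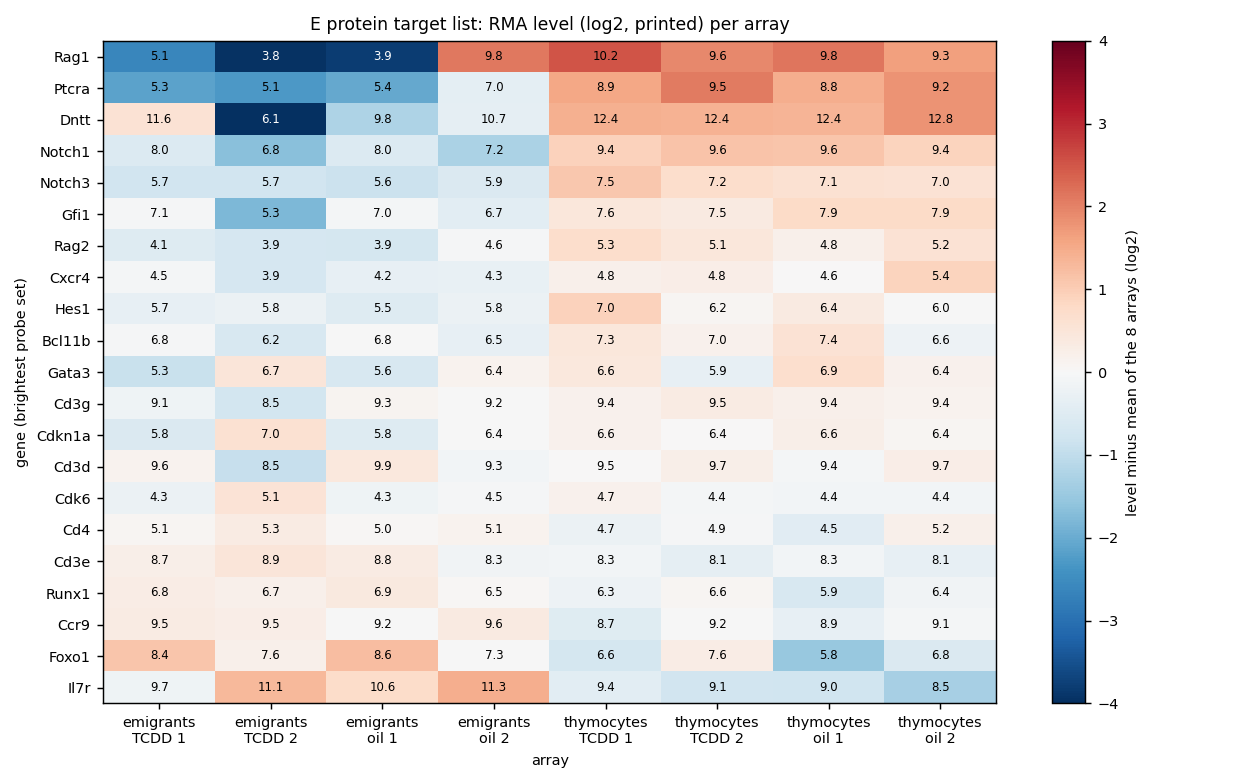
Level (log2, printed) of the 21 measured genes of the E protein target list per array, coloured by the level minus the mean of the 8 arrays and ordered from the most negative to the most positive difference between emigrants and thymocytes. The 5 genes at the top (Rag1, Ptcra, Dntt, Notch1 and Notch3) are lower in emigrants except for Rag1 in emigrants oil 2 (9.81), and Foxo1 and Il7r at the bottom are higher.

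After TCDD the target list had a median difference of -0.06 in emigrants (9 higher and 12 lower means) and of 0.08 in thymocytes (13 higher and 8 lower), against 0.03 and -0.005 over all genes, with 0 members called and 0 at an unadjusted p under 0.05 in either. The smallest p values in emigrants belonged to Cd3g (-0.48), Ptcra (-1.01) and Cd3d (-0.56), and in thymocytes to Notch3 (0.28), Runx1 (0.32) and Foxo1 (0.83). In emigrants Cd3g differed by -0.20 and Cd3d by -0.021 without emigrants TCDD 2, and Ptcra by -0.19 without emigrants oil 2, while it differed by -1.77 with emigrants oil 1 counted as TCDD. In thymocytes, with an array left out, Notch3 ran from 0.10 to 0.47, Runx1 from 0.058 to 0.58 and Foxo1 from 0.32 to 1.34. The emigrant median was -0.31 when emigrants TCDD 1 was left out and -0.017 when emigrants TCDD 2 was.

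Of the 14 listed genes of NK and innate-like lymphocytes, 13 were measured (not Klrb1c), and 0 were called in emigrants against thymocytes. Whether each of them depends on Id2 or Id3 was not tested. A higher mean was seen for 9 and a lower one for 4, with a median difference of 0.28, and at an unadjusted p under 0.05 there were 5 higher and 0 lower members of 13, against 14.1% of all probe sets and a median of 0.03 over all genes. Tbx21, the T-box factor T-bet, lay at 6.46 and 5.81 in TCDD emigrants, 7.01 and 6.36 in oil emigrants, 4.57 and 5.09 in TCDD thymocytes, and 4.63 and 4.80 in oil thymocytes. All emigrant arrays were above all thymocyte arrays (difference 1.64, SE 0.23, limma adjusted p = 0.0614). Il2rb, the interleukin 2 receptor beta chain, also did not overlap (difference 0.41, limma adjusted p = 0.157).

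Eomes, the T-box factor of NK and memory-type T cells, lay at 6.24 and 5.22 in TCDD emigrants, 8.22 and 7.75 in oil emigrants, 4.84 and 5.33 in TCDD thymocytes, and 5.11 and 5.62 in oil thymocytes. The oil emigrants were the high group, with TCDD emigrants well below them. The difference between emigrants and thymocytes was 1.64 (SE 0.28, limma adjusted p = 0.0771). The TCDD difference in emigrants was -2.26 (SE 0.39, limma adjusted p = 1). Leaving out emigrants TCDD 2 gave -1.75. It was -1.19 (SE 1.03) with emigrants oil 1, whose Treatment field names TCDD, counted as TCDD. With the probe sets of the gene averaged it was -1.34. In the same comparison the list had 1 member at an unadjusted p under 0.05 (Eomes), 4 higher and 9 lower means and a median of -0.15, with Klrd1 at -1.33 and Tbx21 at -0.55. With an array left out Klrd1 ran from -2.23 to -0.43 and Tbx21 from -0.88 to -0.22, and without emigrants TCDD 2 Klrd1 was at -0.43. In thymocytes the list's TCDD median was -0.04, with 6 higher and 7 lower means, and its smallest p values belonged to Klrd1 (0.72), Sox13 (-0.19) and Tox (-0.22), with ranges of 0.072 to 1.36, -0.35 to -0.030 and -0.30 to -0.15 with an array left out.

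Among the listed partners and regulators of E and Id proteins, 31 of 34 were measured. In emigrants against thymocytes 0 were called, 22 had a higher and 9 a lower mean, and 6 higher and 2 lower members of 31 had an unadjusted p under 0.05, against 14.1% of all probe sets. Crebbp, a coactivator that E proteins recruit, differed by 0.72 (limma adjusted p = 0.132). Egr1, a factor induced by receptor signals that raises Id3 in thymocytes, differed by 1.35 (limma adjusted p = 0.141), with emigrants at 10.00 to 10.53 and thymocytes at 8.35 to 9.81. Egr1 thus did not overlap between the sources. The Id3 difference of -0.07 had an interval (-1.62 to 1.49) too wide to tell a rise from a fall. A link between Egr1 and Id3 in these cells was not tested. Huwe1, a ubiquitin ligase, differed by 0.45 (limma adjusted p = 0.215), and by -0.02 with its probe sets averaged.

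The 8 listed targets of E2A in B cells were all measured and 0 were called in emigrants against thymocytes, with 4 higher and 4 lower means, of which 2 higher and 1 lower had an unadjusted p under 0.05, against 14.1% of all probe sets. Cd79b, a chain of the B cell receptor, lay between 4.89 and 5.69 in emigrants and between 6.14 and 7.55 in thymocytes (difference -1.60, SE 0.29, limma adjusted p = 0.0917). The list shares Il7r and Foxo1 with the thymocyte targets, and Pax5 and Cd79a, which define B cells, were dim on all arrays.

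The mean levels of 3 marker lists moved along with the source. Each list was also taken without its leading gene, picked as the one that differed most between the sources. The mean level of the 4 measured plasmacytoid dendritic cell markers, whose identity E2-2 maintains, was 5.50 to 6.43 in emigrants and 6.71 to 7.54 in thymocytes, and 0 of them were dim on all arrays. Ly6d, also made by lymphoid progenitors, led that list, at 5.10 to 9.09 in emigrants and 10.22 to 11.15 in thymocytes. Without it the means overlapped, at 5.46 to 6.02 in emigrants and 5.53 to 6.33 in thymocytes. Among the genes left, Irf8 was still lower in all emigrant arrays (4.91 to 5.15) than in all thymocyte arrays (5.37 to 6.38), while Bst2 and Pacsin1 overlapped. The 5 measured B cell markers had a mean of 5.26 to 5.49 in emigrants and 5.88 to 6.39 in thymocytes, with 2 of them (Cd79a and Pax5) dim on all arrays. Without Ms4a1 they overlapped, at 5.23 to 5.73 in emigrants and 5.49 to 5.75 in thymocytes. Among the genes left, Cd79b was still lower in all emigrant arrays (4.89 to 5.69) than in all thymocyte arrays (6.14 to 7.55). Blk lay at 7.09 to 9.51 in emigrants and 7.22 to 7.58 in thymocytes. The 9 measured T lineage markers had a mean of 6.92 to 7.15 in emigrants and 7.37 to 7.86 in thymocytes, a list that shares Ptcra, Cd4 and the Cd3 chains with the E protein targets. Without Ptcra they overlapped, at 7.14 to 7.39 in emigrants and 7.19 to 7.66 in thymocytes. Of the genes left, Thy1 was lower in all emigrant arrays (8.45 to 8.84) than in all thymocyte arrays (9.25 to 9.41). So was Cd3g (8.50 to 9.33 against 9.36 to 9.55), and the other T lineage markers overlapped. The 5 measured NK markers overlapped, at 7.17 to 8.43 in emigrants and 7.19 to 8.20 in thymocytes, and so did the 7 granulocyte markers, at 5.98 to 9.001 in emigrants and 6.75 to 8.32 in thymocytes. The 7 dendritic cell and macrophage markers lay at 7.14 to 7.78 in emigrants and 7.33 to 7.83 in thymocytes, but Csf1r among them did not overlap, at 9.71 to 10.63 in emigrants and 8.64 to 9.34 in thymocytes, nor did the MHC class II gene H2-Aa, at 8.68 to 9.63 in emigrants and 10.65 to 11.49 in thymocytes. The erythroid list lay at 4.92 to 5.81 in emigrants and 5.03 to 5.45 in thymocytes, and the platelet list at 5.58 to 6.23 in emigrants and 5.38 to 6.11 in thymocytes. The endothelial and stromal list lay at 4.41 to 5.04 in emigrants and 4.39 to 4.60 in thymocytes, with Cdh5, Pecam1 and Tek dim on all arrays. The part of these cells in the differences of Tcf3, Tcf4, Tcf12 and Id2 was not tested.

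**Figure D4:**
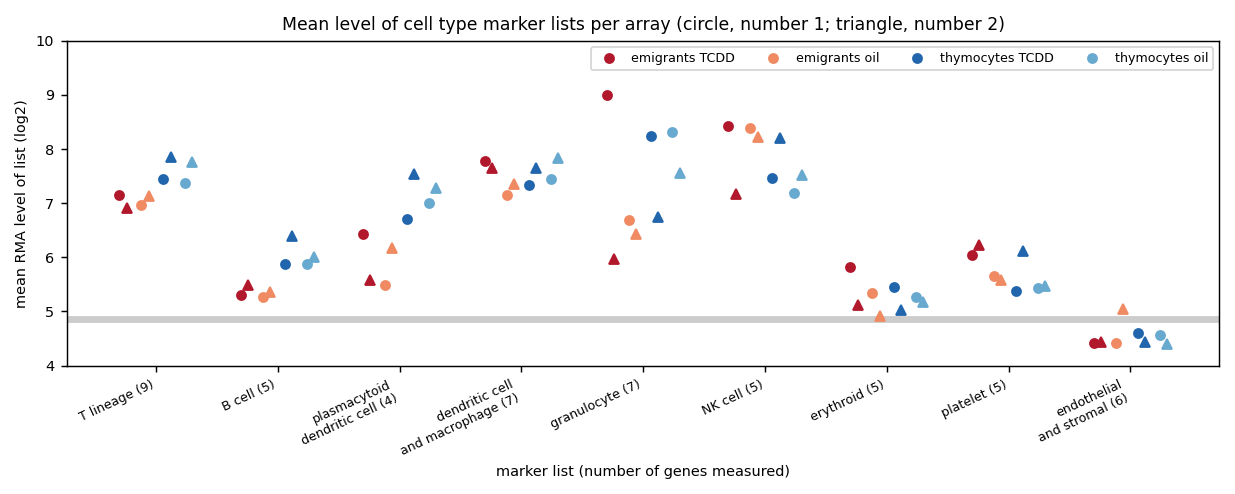
Mean RMA level (log2) of each cell type marker list per array, with colours for the groups, circles for arrays numbered 1, triangles for arrays numbered 2 and a grey band for the array medians. The T lineage, B cell and plasmacytoid dendritic cell lists are lower in all emigrant arrays than in all thymocyte arrays, which no longer holds without Ptcra, Ms4a1 and Ly6d, their leading genes, and the NK, granulocyte and other lists overlap.

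To place each member among other genes, the brightest probe set of each was set against 1817 genes (1818 for Id1) of above-median level and an SD of at least 0.5, over 8 arrays that share their source and number. The likest gene was Cct7 for Tcf3 (Pearson r 0.982), followed by Pspc1 and Cenpo. For Tcf12 it was Fgfr1op2 (r 0.986), then Anxa2 and Mdn1, and for Tcf4 Klhl5 (r 0.94), then Ebag9 and Kpna4. For Id2 it was Sc5d (r 0.946), then Icos, a T cell costimulator, and Alg5. For Id3 it was Rab3ip (r 0.97), then the lymphocyte adhesion molecules Cd2 and Cd48, and for Id1 it was Cand1 (r 0.959). With so many genes searched over 8 arrays, a high r is reached by many genes and describes these arrays only.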

How the data were processed

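RNA of sorted CD4-CD8- cells was measured on 8 Affymetrix mouse arrays, in 4 groups of 2 taken from the sample titles. The deposited log2 values cover 22690 probe sets and were made with RMA per the submitters' processing notes, with no version given. Because RMA gives all arrays 1 distribution, a change shared by most genes is not visible, and it shrinks differences at low signal. Depth has no counterpart here, and the number of arrays limits the precision.

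Symbols are those of GEO's platform annotation, updated through gene identifiers with a RefSeq table of GRCm38.p6 (20393 with 1 symbol, 691 with several, 1606 with none). Other genes were represented by their brightest probe set.

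A mean per group was fitted to the 8 arrays with limma 3.58.1 (lmFit, eBayes, R 4.3.3), leaving 4 residual degrees of freedom. Tests were two-sided and adjusted by Benjamini-Hochberg over every probe set, and 95% intervals use 6.25 moderated degrees of freedom. The code was tested on simulated data. Members and gene lists were chosen with earlier results of these data known. Named were all member probe sets, up to 8 list genes past the threshold or otherwise the 3 with the smallest p, and the 3 likest genes of each member. Of these, the text gives the TCDD comparisons for the thymocyte target and NK lists alone, a narrowing made after the data were seen. Alternatives were a repeated quantile normalization, median centring, brighter probe sets only, the brightest or the mean probe set of a gene, a trended robust prior, the array number as a block overall or within each source, only the arrays compared, emigrants oil 1 counted as TCDD, and each array left out. The counts over gene lists with an array left out, and the marker means without the gene that differed most between sources, were added after the data were seen.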

Additional observations from a re-analysis of the deposited data

How the results depend on the processing

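No E protein or Id probe set passed the limma threshold in any comparison under the alternatives tried, except with the array number as a block within each source, where 4 were called lower or higher in emigrants over both treatments (Tcf3 1426297_at, Tcf12 1427670_a_at, Tcf4 1434148_at and Id2 1435176_a_at) and 1 in oil (Tcf3 1426297_at). By its construction that fit takes the difference between array numbers out of the spread against which the sources are compared. The labels do not pair the arrays by number. Deviations from the group mean correlated over all probe sets between same-numbered TCDD and oil arrays of a source (r 0.734 in thymocytes and 0.524 in emigrants), and between sources r was -0.148 to 0.123.

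Over all probe sets, the count called in emigrants against thymocytes (14) was 34 with quantile normalization repeated, 109 among brighter probe sets, 69 with the mean probe set of a gene, 6 with a trended robust prior, 203 with the replicate block, 2963 with the replicate block within each source and 88 with emigrants oil 1 counted as TCDD. It was 76 without emigrants TCDD 1, 48 without emigrants oil 2, 2 without emigrants oil 1 and 0 without each of the other arrays. The count in TCDD (0) was 1 with the trended prior, 357 with the block within each source, 16 with emigrants oil 1 counted as TCDD, and 0 to 13 with an array left out. In oil (0) it was 1170 with that block, and 1 with the mean probe set or with emigrants oil 1 counted as TCDD. The TCDD counts (0) were 1 with that block in thymocytes and over both sources, 1 in emigrants and in the interaction with emigrants oil 1 counted as TCDD, and 0 to 1 over both sources with an array left out. Among the listed genes, Notch3 lost its call with the trended prior and with 6 of the arrays left out. Ptcra gained a call in 8 alternatives (limma adjusted p of 0.00733 to 0.049), Notch1 in 4 and Tbx21 in 3. Il7r was called with the mean probe set (adjusted p = 0.0147), and Il7r, Foxo1, Cd79b, Crebbp, Egr1, Huwe1, Eomes and Il2rb with the block within each source.

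Of 578 comparisons of a single difference with an alternative other than leaving out an array, 6 turned the sign. With emigrants oil 1 counted as TCDD, the TCDD difference in emigrants was 0.65 for Id3 and 0.069 for Tbx21, and the interaction of Id3 was 0.33. That of Tcf4 1434148_at was -0.028 with quantile normalization repeated and -0.013 with median centring, and Huwe1 differed by -0.019 with its probe sets averaged.

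Of 512 comparisons with an array left out, 30 turned the sign. For TCDD in thymocytes the ranges were -0.033 to 0.89 (Tcf4 1416724_x_at), -0.85 to 1.62 (Tcf4 1434148_at), -1.16 to 0.45 (Id2 1435176_a_at), -0.25 to 0.51 (Id2 1422537_a_at), -0.37 to 0.72 (Id2 1453596_at) and -0.50 to 1.14 (Id3). For TCDD in emigrants they were -0.32 to 0.12 (Tcf3 1426297_at), -0.69 to 0.98 (Tcf4 1416723_at), -0.19 to 0.61 (Tcf4 1416724_x_at), -0.60 to 0.61 (Tcf4 1434148_at), -2.34 to 0.010 (Tcf12 1427670_a_at), -0.36 to 0.20 (Tcf12 1421908_a_at), -0.77 to 0.086 (Id2 1453596_at) and -1.73 to 0.20 (Id3). For emigrants against thymocytes they were -0.24 to 0.038 (Tcf12 1421908_a_at) and -0.55 to 0.41 (Id3) over both treatments, -0.89 to 0.13 in oil (Tcf12 1427670_a_at) and -0.047 to 0.72 in TCDD (Id2 1422537_a_at). The causes of these changes were not tested.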
